A study of Danio rerio with 13 samples.

Results

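The mitochondrial minus strand carried 413 of the 493063 site entries in the 4 uniquely mapped crosslink tables of this iCLIP series. Every entry on chrM (Zv9, also called danRer7) with a negative value in the value column, which marks the minus strand, was taken, at any position. These entries fell on 264 different nucleotides. The hnRNP A1 table during zygotic genome activation (ZGA) listed 194 of its 200258 sites there, and the hnRNP A1 table before activation (preZGA) 134 of its 287588. The IgG control table listed 85 of 3709 sites at ZGA and 0 of 1508 at preZGA.

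All embryos were wild-type zebrafish of the AB strain, and all were crosslinked with UV light of 254 nm, IgG controls included. The groups were hnRNP A1 at ZGA (about 1000 cells, n = 4 libraries), hnRNP A1 at preZGA (32 cells, n = 3), IgG at ZGA (n = 3) and IgG at preZGA (n = 3). In iCLIP, the protein is pulled down with the RNA linked to it, and cDNA ends give the position of the crosslink. Each group was deposited as 1 summed table of sites that passed a significance filter, so libraries could not be compared and nothing was tested; intervals are exact at 95% and cover counting error only. A nucleotide without an entry is called not listed, since cDNAs below the filter would not appear. A share is the percentage of all cDNAs listed in a table, which came to 480927 for hnRNP A1 at ZGA, 583691 for hnRNP A1 at preZGA, 20262 for IgG at ZGA and 9606 for IgG at preZGA.

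The vertebrate mitochondrial genome is a small circle read from both strands into long precursor RNAs. Most genes are read as the plus strand, and the minus strand encodes a single protein, the complex I subunit ND6, and a small set of tRNAs that lie singly or in short runs between the genes of the other strand. The tRNAs are cut out of the precursors, which frees the flanking RNAs, and what remains between them on the minus strand is antisense to the plus-strand genes and, in mammals, is degraded quickly. hnRNP A1 is an abundant nuclear RNA-binding protein that shuttles to the cytoplasm and is known for its part in splicing.

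The sites formed 14 clusters, runs of at least 2 listed nucleotides no more than 15 nt apart, and 1 lone site. They were named by position in the gene table of another assembly, GRCz12tu, so their order follows that table and is no check on the names. From low to high coordinate the names were control region (before the first gene), trnQ, trnA, trnN, trnC, trnY, trnS1, ND6 and trnE. The lone site beside trnQ and a small cluster beside trnS1 were placed between genes. The last minus-strand gene of that table, trnP, had no listed site in any group. When the table's positions were taken to be the same as in Zv9, which could not be checked on sequence, 1799 of the 1837 hnRNP A1 cDNAs at ZGA lay inside the 9 listed genes (97.9%). Moving all sites together by up to 100 nt either way gave from 580 to 1811 cDNAs inside. The highest count came at all 23 shifts from -24 to -2 nt and not at the unmoved positions. Offsets of this size thus could not be told apart, and the moves do not show that the numbering is the same. Sites were thus listed in 8 of the 9 genes for hnRNP A1 at ZGA, in 6 for hnRNP A1 at preZGA, in 6 for IgG at ZGA and in 0 for IgG at preZGA.

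The minus-strand signal lay mostly in tRNAs at ZGA and mostly in ND6 at preZGA. The tRNA clusters held 1776 cDNAs over 155 sites at ZGA and 141 cDNAs over 45 sites at preZGA. The ND6 clusters held 23 cDNAs over 15 sites at ZGA and 238 cDNAs over 75 sites at preZGA. Within the minus strand, tRNAs made up 96.7% of the hnRNP A1 cDNAs at ZGA (95.8 to 97.5) and 34.9% at preZGA (30.3 to 39.8), while ND6 made up 1.25% at ZGA (0.795 to 1.87) and 58.9% at preZGA (53.9 to 63.8). These percentages do not depend on the totals of the tables. In these pooled embryos, more RNA of a kind and more crosslinking per RNA molecule cannot be told apart, since RNA levels were not measured here. The IgG control also differed between the stages. Its minus-strand share was 1.49% at ZGA (1.32 to 1.66), all of it in tRNAs, and 0 at preZGA (up to 0.0384%). The part of this background in the stage difference of hnRNP A1 was not tested.

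**Figure D1:**
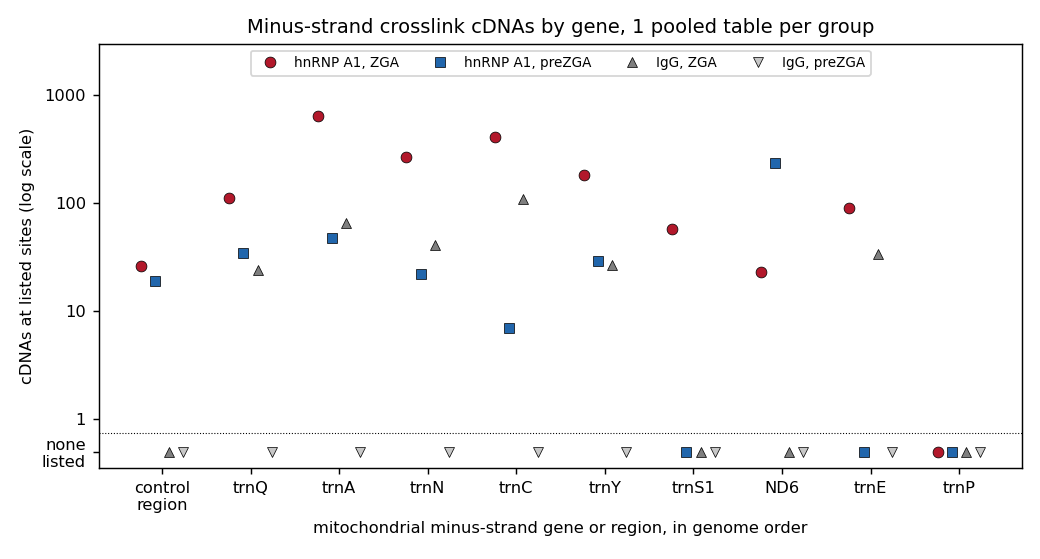
The vertical axis gives cDNAs at listed minus-strand sites on a log scale, with genes that have no listed site on the lowest line, and the horizontal axis gives the gene or region in genome order. Circles are hnRNP A1 at ZGA, squares hnRNP A1 at preZGA, and triangles IgG. In each tRNA with a site the circle is highest, from 58 cDNAs in trnS1 to 645 in trnA. In ND6 the order is turned, with 23 cDNAs at ZGA and 238 at preZGA.

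Taken as a share of all listed cDNAs, the tRNA clusters were 15.3-fold higher at ZGA than at preZGA (12.9 to 18.3) and the ND6 clusters had a ratio of 0.117 (0.0729 to 0.180). The ratio of ND6 over that of the tRNAs was 0.00767 (0.00464 to 0.0123). The whole strand, with 1837 cDNAs at ZGA and 404 at preZGA, had a ratio of 5.52 (4.95 to 6.16), so this single value joins groups that lie on opposite sides of 1. Leaving out all sites at most 15 nt from an IgG site, which removes 6 of the 7 tRNA clusters and keeps ND6, gave 119 cDNAs at ZGA and 263 at preZGA, a ratio of 0.668 (0.533 to 0.832) with such sites left out of the tables' totals too. The genome held 8995 clusters whose hnRNP A1 cDNAs summed to 20 or more across the stages, and of these 14.3% had a share ratio of 2 or more and 26.2% one of 0.5 or less. Of the 10 minus-strand mitochondrial clusters of that size, 7 passed the upper bound, all of them in tRNAs, and 2 the lower, both in ND6. The tenth, from 678 to 737 in the control region, had 15 cDNAs at ZGA and 10 at preZGA, a log2 ratio of 0.86. The median cluster of the genome had a log2 ratio of -0.28, and relative to it the tRNA ratio was larger and the ND6 ratio nearer to 1, at 18.5 and 0.142.

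**Figure D2:**
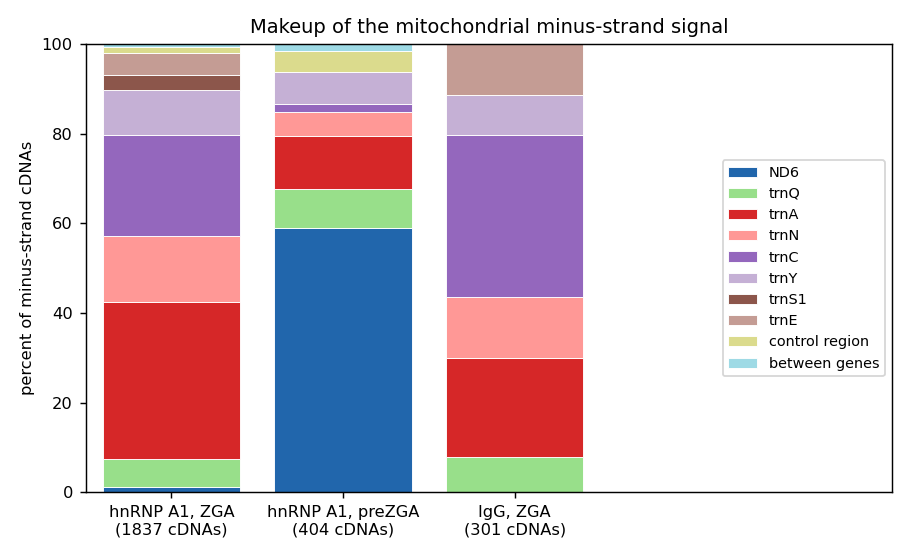
Bars give the percent of minus-strand cDNAs taken by each gene or region in 3 pooled tables, with the number of cDNAs under each bar. IgG at preZGA has no listed minus-strand site and no bar. ND6 takes 58.9% of the hnRNP A1 bar at preZGA, 1.25% at ZGA and no part of the IgG bar.

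The 5 tRNAs with sites at both stages differed in their stage ratios. The alanine tRNA trnA had the most cDNAs, 645 over 31 sites at ZGA and 48 over 14 sites at preZGA, a share ratio of 16.3 (12.2 to 22.3). Its neighbour trnN, which carries asparagine, had 270 cDNAs at ZGA and 22 at preZGA, a ratio of 14.9 (9.64 to 24.2), and its interval overlaps that of trnA. The cysteine tRNA trnC had 415 cDNAs at ZGA and 7 at preZGA, a ratio of 72.0 (34.6 to 180).

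The tyrosine tRNA trnY had 184 cDNAs at ZGA and 29 at preZGA, a ratio of 7.70 (5.19 to 11.8). The glutamine tRNA trnQ had 113 cDNAs at ZGA and 35 at preZGA, the lowest of the 5 ratios at 3.92 (2.66 to 5.90). The interval of trnC thus lies above those of the other 4, and those of trnQ and trnY overlap each other. The serine tRNA trnS1 had 58 cDNAs at ZGA and the glutamate tRNA trnE 91, with no listed site at preZGA in either cluster, so no ratio is given. In site numbers in place of cDNAs the 5 ratios ran from 3.02 for trnY to 12.9 for trnC.

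**Figure D3:**
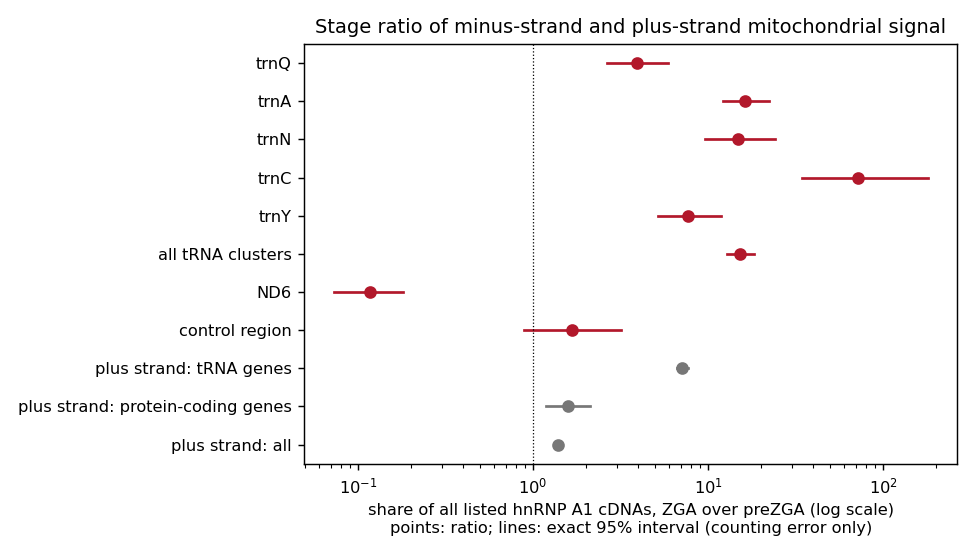
The horizontal axis gives the stage ratio on a log scale (share of listed hnRNP A1 cDNAs, ZGA over preZGA), with exact 95% intervals as lines. Red marks minus-strand items and grey the plus strand. The 5 tRNAs lie right of 1, from 3.92 to 72.0, and ND6 lies left of it at 0.117.

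Plus-strand tRNAs were also higher at ZGA. The 14 tRNA genes of the other strand, placed with the same gene table, held 5483 cDNAs at ZGA and 932 at preZGA, a ratio of 7.14 (6.66 to 7.66). The ratio for the summed minus-strand tRNAs was 2.14 times that value (1.78 to 2.59). This did not hold for each of them: the interval of trnQ (2.66 to 5.90) lies below the plus-strand interval, that of trnY (5.19 to 11.8) overlaps it, and those of trnA, trnN and trnC lie above it. The 12 protein-coding genes of the plus strand held 111 cDNAs at ZGA and 85 at preZGA, each in 5 genes, a ratio of 1.58 (1.18 to 2.13). The ND6 ratio was 0.0740 of theirs (0.0424 to 0.126). The plus strand as a whole had 28087 cDNAs at ZGA and 24588 at preZGA, a ratio of 1.39 (1.36 to 1.41). The minus strand made up 6.14% of all mitochondrial hnRNP A1 cDNAs at ZGA (5.87 to 6.42) and 1.62% at preZGA (1.46 to 1.78).

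The tRNA clusters were narrow and lay strictly on 1 strand. They spanned 22 to 31 nt (trnQ 4876 to 4905, trnA 6133 to 6163, trnN 6203 to 6232, trnC 6318 to 6345, trnY 6384 to 6407, trnS1 8001 to 8022 and trnE 15258 to 15283). In trnA every one of the 31 nucleotides was listed at ZGA. The submitters' filter scored each nucleotide with the 15 nt on either side, a window of 31 nt, and the part of that window in the cluster widths was not tested. No plus-strand site was listed within any of these 7 spans in any of the 4 tables.

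The strongest nucleotide at ZGA was 6343 in trnC, with 86 hnRNP A1 cDNAs at ZGA, none listed at preZGA and 22 IgG cDNAs at ZGA. It was followed by 6225 in trnN with 74 cDNAs at ZGA, again not listed at preZGA, beside 7 IgG cDNAs at ZGA. Nucleotide 6147 in trnA held 72 cDNAs at ZGA, 12 at preZGA and 6 with IgG at ZGA. These leading positions thus include some that both stages share and some listed at ZGA alone.

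Nucleotide 6399 in trnY held 63 cDNAs at ZGA and 14 at preZGA, with 12 in IgG at ZGA. In trnQ nucleotide 4890 held 54 at ZGA and 21 at preZGA, with 11 in IgG at ZGA, and it was the strongest minus-strand site at preZGA. The other members of the 10 strongest at ZGA were 6161 in trnA (55), 6323 and 6340 in trnC (44 and 43), 8011 in trnS1 (38) and 15268 in trnE (36). Of the 10, 7 had no listed site at preZGA, and 9 also had an IgG site at ZGA, 8011 being the exception. Of all 194 minus-strand sites of hnRNP A1 at ZGA, 129 had no listed site at preZGA, and 83 had an IgG site at ZGA (42.8%). The lack of a preZGA site was thus about as common among the 10 as among all sites.

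Some clusters were dominated by a single nucleotide and others were spread out. In trnS1, 65.5% of the hnRNP A1 cDNAs at ZGA lay on 8011. In trnQ, 47.8% lay on 4890 at ZGA and 60.0% at preZGA. In trnA the leading nucleotide held 11.2% at ZGA and 25.0% at preZGA. The leading nucleotide was the same at both stages in trnQ, trnA and trnY. In trnN it was 6225 at ZGA and 6218 at preZGA, and in trnC 6343 at ZGA and 6333 at preZGA. The nucleotide that led at ZGA thus lay 7 and 10 nt upstream (5′ on the minus strand, where coordinates run downward). These preZGA leads rest on few cDNAs, 8 of 22 in trnN and 4 of 7 in trnC. Nucleotides 6225 and 6343 also led in the IgG table at ZGA.

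For the 5 tRNAs, the part of the cDNAs upstream of the nucleotide that led at preZGA is given at both stages. Because that nucleotide was picked from the preZGA table itself, no verdict is drawn from the differences. Upstream of the nucleotide that led at preZGA lay 309 of 645 trnA cDNAs at ZGA, or 47.9% (44.0 to 51.8), and 4 of 48 at preZGA, or 8.33% (2.32 to 19.98). In trnN these were 127 of 270 cDNAs at ZGA, or 47.0% (41.0 to 53.2), and 4 of 22 at preZGA, or 18.2% (5.19 to 40.3). In trnC they were 228 of 415 cDNAs at ZGA, or 54.9% (50.01 to 59.8), and 0 of 7 at preZGA, which allows up to 41.0%.

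In trnQ the percentages were 21.2% at ZGA (14.1 to 29.9) and 22.9% at preZGA (10.4 to 40.1). In trnY they were 12.5% at ZGA (8.09 to 18.2) and 3.45% at preZGA (0.0873 to 17.8). The IgG table at ZGA also held such upstream cDNAs, 48 of 66 in trnA, 19 of 41 in trnN and 58 of 109 in trnC, but 1 of 24 in trnQ and 0 of 27 in trnY. This split was chosen after the profiles had been seen, and the nucleotide it rests on was picked from the preZGA table, with 7 to 48 cDNAs per tRNA there. The preZGA percentages are thus not independent of that choice.

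**Figure D4:**
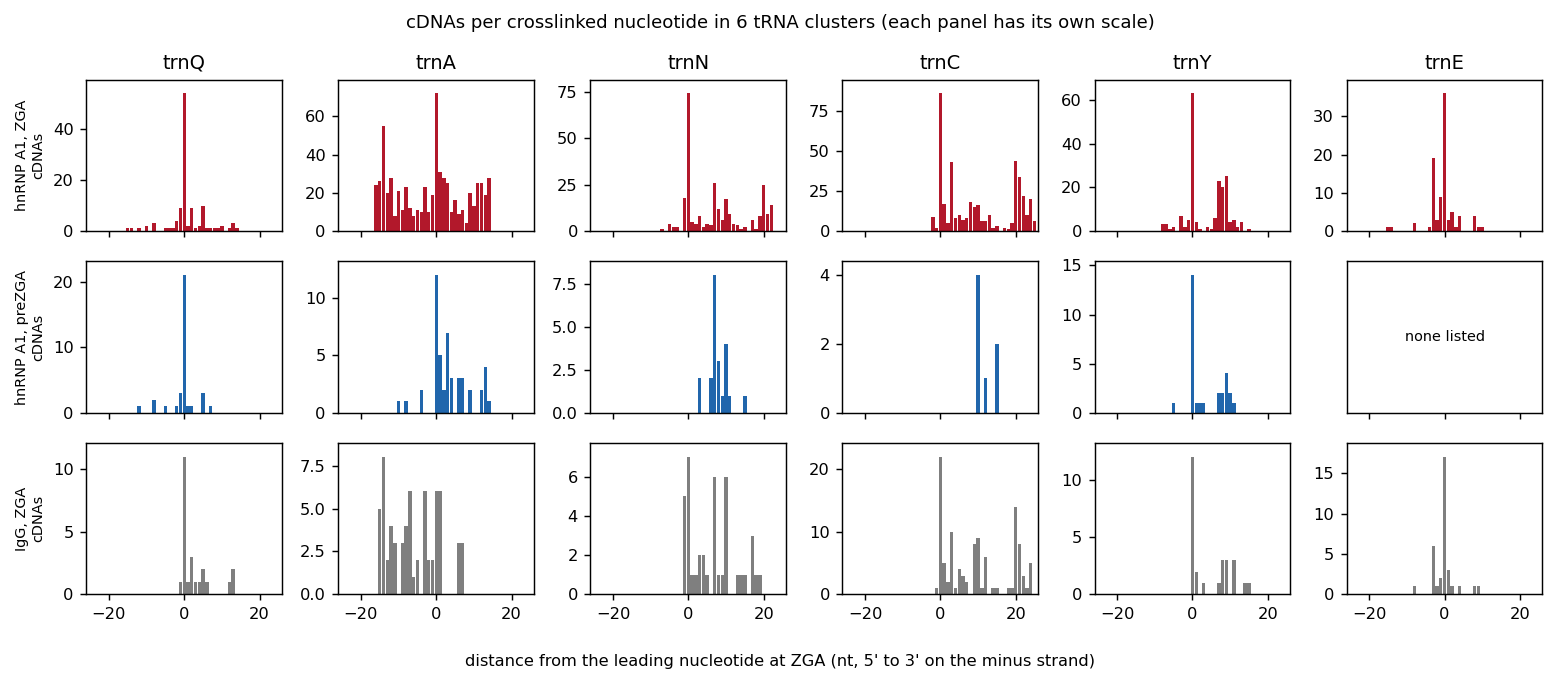
Each column is a tRNA and each row a pooled table (hnRNP A1 at ZGA, hnRNP A1 at preZGA, IgG at ZGA). Bars give cDNAs per nucleotide by distance in nt from the nucleotide that leads at ZGA, 5′ to 3′, and each panel has its own vertical scale. In trnQ and trnY the same nucleotide leads in all 3 rows. In trnN and trnC the nucleotide that leads at preZGA, with 8 and 4 cDNAs, lies 7 and 10 nt downstream.

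Overlap of listed nucleotides between the stages is given beside how densely ZGA was listed. Of the 134 minus-strand sites at preZGA, 65 were on a nucleotide also listed at ZGA, or 48.5% (39.8 to 57.3). In tRNAs this was 44 of 45 sites, but ZGA listed 130 of the 143 nucleotides that these 5 clusters span (90.9%), so an overlap near that level follows from coverage. In ND6 it was 15 of 75 sites, the most that the 15 ND6 sites at ZGA allow. These all lay in the cluster from 15097 to 15147. There preZGA listed 42 of the 51 spanned nucleotides, so a high overlap follows from coverage here too. Of the 155 tRNA sites at ZGA, 44 had a preZGA site, or 28.4% (21.4 to 36.2). The 155 include 10 sites in trnS1 and 15 in trnE, where preZGA listed none. In the other 5 clusters preZGA listed only 45 of the 143 spanned nucleotides, so a low overlap follows from coverage. These 44 shared nucleotides carried 681 cDNAs at ZGA, or 38.3% of the tRNA cDNAs, a larger part than their part of the sites. The 111 tRNA nucleotides listed at ZGA alone, which include all those of trnS1 and trnE, carried 1095.

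The ND6 signal was broad. Its sites averaged 3.17 cDNAs at preZGA, close to the 3.13 of tRNA sites at that stage. At ZGA they were weak, with 1.53 cDNAs per site against 11.5 in tRNAs. It formed clusters from 15036 to 15072 and from 15097 to 15147, with 25 nt between their facing sites. The first had 96 cDNAs over 33 sites at preZGA and no listed site at ZGA. The second had 23 cDNAs over 15 sites at ZGA and 142 over 42 sites at preZGA, a share ratio of 0.197 (0.121 to 0.307). The strongest ND6 nucleotide at preZGA was 15051 with 11 cDNAs, followed by 15114 with 10 and 15058 with 9. No ND6 nucleotide at ZGA exceeded 3 cDNAs. Of the 12 strongest minus-strand nucleotides at preZGA, those with at least 7 cDNAs, 7 lay in ND6. No ND6 site of at least 5 cDNAs was listed at ZGA, against 113 cDNAs on such sites at preZGA.

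**Figure D5:**
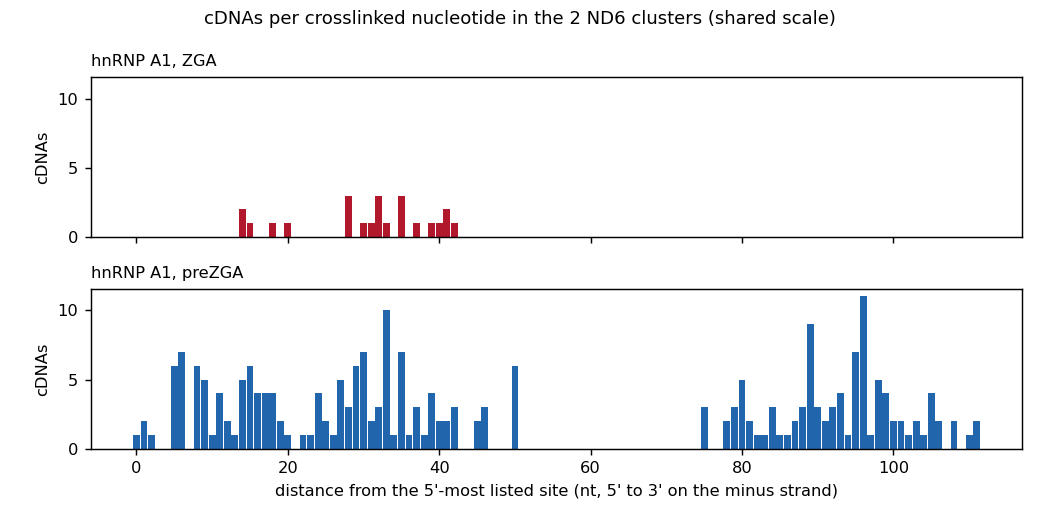
Bars give hnRNP A1 cDNAs per nucleotide in the ND6 clusters at ZGA (above) and preZGA (below) on one vertical scale, by distance in nt from the listed site nearest to the 5′ end. At preZGA 75 nucleotides hold up to 11 cDNAs in 2 runs. At ZGA 15 nucleotides of the upstream run hold up to 3 each.

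IgG sites at ZGA lay in 6 of the 7 tRNAs that hnRNP A1 marked at ZGA, and none lay in ND6. All 301 IgG cDNAs on the minus strand were in these tRNAs, and 83 of the 85 IgG sites were on a nucleotide of the hnRNP A1 table at ZGA (97.6%, 91.8 to 99.7). In these 6 clusters hnRNP A1 at ZGA listed 145 of the 169 spanned nucleotides (85.8%), so a coincidence near that level follows from coverage. The 83 nucleotides listed in both were 53.5% of the 155 hnRNP A1 tRNA sites at ZGA. They held 1263 of the 1776 hnRNP A1 tRNA cDNAs at ZGA (71.1%). The 5 strongest IgG nucleotides, led by 6343 in trnC with 22 cDNAs and 15268 in trnE with 17, were all among the 10 strongest of hnRNP A1. Of the 10 minus-strand clusters compared above, 6 held an IgG site at ZGA, against 3.58% of the 8995 clusters of the genome. IgG sites in tRNAs were not particular to the minus strand, since at ZGA 10 of the 14 plus-strand tRNA genes also held them, with 630 IgG cDNAs.

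In number, the hnRNP A1 table at ZGA held 6.10-fold more minus-strand cDNAs than the IgG table (5.40 to 6.92). These tables sum 4 and 3 libraries, and neither this fold nor those of single tRNAs were adjusted for that. As a share of all listed cDNAs the direction was turned: the minus strand made up 0.382% of the hnRNP A1 table at ZGA (0.365 to 0.400) and 1.49% of the IgG table at ZGA (1.32 to 1.66), a ratio of 0.257 (0.228 to 0.291). Every tRNA with an IgG site had a lower share in the hnRNP A1 table than in the IgG table at ZGA, from 0.113 of it in trnE to 0.412 in trnA. For ND6, the control region and trnS1, no IgG site was listed at either stage. The IgG tables list far fewer cDNAs in all, so a weak signal could be missed there.

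The fold over IgG differed between tRNAs. It was 9.77 in trnA (7.58 to 12.8, 645 hnRNP A1 and 66 IgG cDNAs at ZGA), 6.81 in trnY (4.53 to 10.6, 184 hnRNP A1 and 27 IgG cDNAs) and 6.59 in trnN (4.73 to 9.38, 270 hnRNP A1 and 41 IgG cDNAs). It was 4.71 in trnQ (3.01 to 7.65, 113 hnRNP A1 and 24 IgG cDNAs), 3.81 in trnC (3.08 to 4.75, 415 hnRNP A1 and 109 IgG cDNAs) and 2.68 in trnE (1.79 to 4.09, 91 hnRNP A1 and 34 IgG cDNAs). The intervals of trnA and of trnC or trnE do not overlap, while those of trnY, trnN and trnQ do overlap each other. Within the minus strand, trnA took 35.1% of hnRNP A1 cDNAs (32.9 to 37.3) and 21.9% of IgG cDNAs (17.4 to 27.0), and trnC took 22.6% of hnRNP A1 cDNAs (20.7 to 24.6) and 36.2% of IgG cDNAs (30.8 to 41.9). trnC, which had the highest stage ratio of the 5 tRNAs listed at both stages, also had the most IgG cDNAs. The ratios of trnE and trnS1, not listed at preZGA, have no upper bound and could be higher. The part of this background in the stage ratios was not tested.

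Outside these genes the signal was thin. In the control region, the non-coding stretch that in mammals holds the transcription promoters and an origin of replication, 4 small clusters lay between 545 and 848. They held 26 cDNAs over 21 sites at ZGA and 19 over 12 sites at preZGA, a share ratio of 1.66 with an interval (0.884 to 3.17) that covers 1. No control-region nucleotide exceeded 3 cDNAs, and 4 were listed at both stages. Placed between genes by the unmoved positions, the lone site at 4923 beside trnQ had 9 cDNAs at ZGA and 3 at preZGA. The same nucleotide on the plus strand held 109 cDNAs at ZGA and none listed at preZGA. The pair of nucleotides at 8047 and 8048 beside trnS1 had 3 cDNAs at ZGA and 3 at preZGA. With all sites moved by -2 nt, 1811 hnRNP A1 cDNAs at ZGA lay inside the listed genes, those of these sites included. Whether these sites lie between genes thus could not be settled.

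The mean strength of hnRNP A1 sites on the minus strand lay between that of the plus strand and that of the tables as a whole. Most plus-strand cDNAs lay outside the tRNA and protein-coding genes of that strand, so the plus-strand means rest mostly on other RNA. Minus-strand sites averaged 9.47 cDNAs per site at ZGA and 3.01 at preZGA, against 28.5 at ZGA and 27.0 at preZGA on the mitochondrial plus strand and 2.40 at ZGA and 2.03 at preZGA over all hnRNP A1 sites. Sites of a single cDNA made up 30.4% of them at ZGA and 33.6% at preZGA, against 65.1% at ZGA and 65.4% at preZGA over the whole hnRNP A1 tables. IgG sites on the minus strand averaged 3.54 cDNAs at ZGA, below the 5.46 of that whole table. Those on the mitochondrial plus strand, at 4.63, were also below it.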

How the data were processed

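The members and gene lists were chosen with earlier results of these data known. Per the file headers, the authors deposited signed cDNA numbers per nucleotide for sites significant at a false discovery rate of 0.01, with 100 permutations, a 15 nt neighbourhood and regions judged separately, on Zv9 with Ensembl 72. The submitters' processing notes name CASAVA 1.4 and Zv9, with the aligner not given in the sources used here. The 26 files held 8 different tables (4 groups, unique and multi mapping), each repeated for every library of its group and counted once. The labels' description speaks of 3 summed replicates, while the ZGA header for hnRNP A1 names 4.

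The sign was read as the strand and the absolute value as the cDNA number. Clusters joined sites of all 4 tables within 15 nt. Ratios have exact conditional binomial intervals and percentages Clopper-Pearson intervals, at 95%. Ratios of ratios are sample odds ratios of the cDNA counts, with the exact interval of the conditional odds ratio. The interval code was tested on simulated counts. Nucleotides were to be named by rule: the 10 strongest per hnRNP A1 table, with ties, and the 5 strongest with IgG. The preZGA nucleotides tied at 7 cDNAs were counted among the 12 strongest but not named. Clusters were to be named from 50 cDNAs in a table. ND6 and 8 tRNAs are the minus-strand list. Genes were to be named only from an annotation of Zv9, which was not used here. Names by position in the GRCz12tu table were added after seeing the data, as was the split into tRNA and ND6. Sequences were not used here. Tools were Python 3.11.15 with scipy 1.17.1, numpy 2.4.6, matplotlib 3.10.9 and pandas 2.3.3.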

Additional observations from a re-analysis of the deposited data

Results flagged for a closer look

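The multi-mapping table, which divides a cDNA over its genomic positions and was not used for the comparisons, held 1.33 mitochondrial minus-strand cDNAs over 3 sites for hnRNP A1 at ZGA, against 0.333 over 1 site for IgG at ZGA. It is named because it lies above the control in data outside the main measurement, and it is small beside the 1837 uniquely mapped cDNAs.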

How the results depend on the processing

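No paired analysis was possible because each group was 1 summed table, and for the same reason no replicate could be left out. In settings that leave out sites, these were also left out of the tables' totals, except for the trnA cluster. The whole-strand stage ratio of 5.52 was 8.17 with sites of at least 5 cDNAs, 2.08 by site numbers, 3.80 as a share of mitochondrial cDNAs, 4.06 without the trnA cluster and 6.69 scaled to the median cluster. It turned to 0.668 once all sites at most 15 nt from an IgG site were left out, which leaves ND6, trnS1 and the sites placed outside genes. The tRNA ratio of 15.3 was 21.8 with sites of at least 5 cDNAs, 4.95 by site numbers, 10.5 as a share of mitochondrial cDNAs and 18.5 scaled to the median cluster; without sites near IgG no preZGA cDNA and so no ratio remained. The ND6 ratio of 0.117 was 0.0673 with sites of at least 2 cDNAs, 0 with at least 5, and 0.287 by site numbers. The fold of hnRNP A1 over IgG at ZGA, 6.10, was 8.47 with sites of at least 5 cDNAs, 2.28 by site numbers and 5.07 without the trnA cluster. It turned to 0.257 as a share of all listed cDNAs. As a share outside the IgG-rich block of chromosome 1 it was 0.166, and as a share of mitochondrial cDNAs 0.330, the last 2 chosen after seeing the data. IgG tables are far smaller, and the part of table size in this turn was not tested. The share of preZGA sites listed again at ZGA, 48.5%, was 59.0% within 1 nt, 73.9% within 15 nt and 39.3% with sites of at least 2 cDNAs. The number of clusters ran from 11 to 20. Depth limits the stage ratios, since the 5 tRNAs listed at both stages had 7 to 48 cDNAs each at preZGA and ND6 had 23 at ZGA.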
